A study of Mus musculus with 24 samples.

Results

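The 10 genes described here belong to the YAP/TAZ pathway. They are the coactivators Yap1 and Wwtr1 (Wwtr1 encodes TAZ), the DNA-binding partners Tead1, Tead2, Tead3 and Tead4, and the target genes Ctgf, Cyr61, Ankrd1 and Amotl2. They were chosen by symbol from the 37310 genes of the expression tables, with earlier results of these data known. Ctgf and Cyr61 are the older names of Ccn2 and Ccn1. Expression was measured by RNA sequencing in cultured cells of the stromal vascular fraction, which contains the precursors of fat cells. The fraction came from white fat of the groin (inguinal, WAT) and from brown fat between the shoulder blades (interscapular, BAT) of C57BL/6 mice that were 6 weeks old. Adipocyte differentiation was induced in the presence of EGCG (epigallocatechin gallate, a green tea polyphenol) or of DMSO as the control. RNA was taken on day 4, when the induction medium ended, and on day 8, when the differentiation medium ended. This gave 8 groups (WAT or BAT, day 4 or day 8, control or EGCG) of 3 libraries, 24 in all. The dose of EGCG is not in the labels, and they do not state whether replicates were isolated separately, so p-values measure the spread between these libraries, which may be technical.

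In the Hippo pathway, a kinase cascade phosphorylates YAP and TAZ and keeps them out of the nucleus. When the cascade is off, for example in spread cells under tension on a stiff matrix, YAP and TAZ enter the nucleus, bind TEAD factors and switch on genes for secreted matrix proteins and for feedback inhibitors of the pathway. TAZ is also known as a corepressor of PPARγ, the main transcription factor of adipocytes. Messenger RNA levels of Yap1 and Wwtr1 do not report where their proteins are.

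All 10 genes are protein-coding in the annotation of genome build NCBIM37 (mm9). Values are FPKM, reads scaled to gene length and to the reads on genes of the library. The length used was 5282 bases for Yap1, whose annotated exons cover 9257, and equalled the exonic bases for Cyr61 and Ankrd1. Levels can therefore be compared only roughly between genes. Reads assigned to genes numbered 39452696 to 52893848 per library in replicates 1 and 2, and 16392420 to 41675646 in replicate 3, which is in another table. Replicate 3 of WAT day 8 EGCG stood apart: 5 genes took 61% of its reads, against at most 10.5% in any other library, and its other genes were listed low. Tests used replicates 1 and 2, because replicate 3 stands in a table that was scaled separately. Replicate 3 gave a direction alone, after its 8 libraries were rescaled by the median ratio of their genes (factor 0.457 for that library and 1.01 to 1.23 for the others). In WAT controls the 8 adipocyte markers summed to 3714 to 4086 FPKM on day 4 and 5741 to 6372 on day 8. In BAT controls the sums were 6274 to 7262 FPKM on day 4 and 10029 to 10119 on day 8. Most of each day 8 control sum was Fabp4 (means of 4022 and 7546 FPKM). From day 4 to day 8 the means of Lpl (1605 to 1217 in WAT, 1155 to 1079 in BAT) and Cebpa (133 to 127 and 250 to 230) did not rise. Those of the other adipocyte markers rose in both depots. No undifferentiated cells were measured. The brown adipocyte list had a lower sum in day 4 BAT controls (28.5 to 31.3 FPKM over 6 genes) than on day 8 (102 to 113). Most of the day 8 sum was Cox8b, whose mean was 3.87 FPKM on day 4 and 80.5 on day 8. The list was mixed: 3 genes were called higher on day 8 and 2 lower (limma, adjusted p under 0.05). The means of Elovl3 (11.6 to 1.74 FPKM) and Zic1 (10.6 to 3.81 FPKM) fell. Macrophage markers summed to at most 26.1 FPKM in any group.

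The promoters of 3 target genes are shown because they carry the letters that TEAD factors are known to bind. Sequences are from RefSeq on build GRCm38.p6, 5′ to 3′ on the strand of the gene, and cover the 250 bases before the start site. Capitals mark GGAATG or its reverse complement CATTCC.
Ankrd1, chr19:36119845-36120094, minus strand: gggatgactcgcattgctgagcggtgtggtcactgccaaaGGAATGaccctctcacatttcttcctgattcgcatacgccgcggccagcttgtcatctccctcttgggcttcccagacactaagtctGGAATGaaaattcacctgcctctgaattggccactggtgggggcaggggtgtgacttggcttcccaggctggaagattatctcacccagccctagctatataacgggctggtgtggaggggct
Cyr61 (Ccn1), chr3:145649986-145650235, minus strand: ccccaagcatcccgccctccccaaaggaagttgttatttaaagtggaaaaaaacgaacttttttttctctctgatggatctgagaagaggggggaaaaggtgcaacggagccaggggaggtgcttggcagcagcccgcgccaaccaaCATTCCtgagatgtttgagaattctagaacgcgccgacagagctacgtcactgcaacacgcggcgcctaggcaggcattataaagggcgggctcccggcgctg
Amotl2, chr9:102717554-102717803, plus strand: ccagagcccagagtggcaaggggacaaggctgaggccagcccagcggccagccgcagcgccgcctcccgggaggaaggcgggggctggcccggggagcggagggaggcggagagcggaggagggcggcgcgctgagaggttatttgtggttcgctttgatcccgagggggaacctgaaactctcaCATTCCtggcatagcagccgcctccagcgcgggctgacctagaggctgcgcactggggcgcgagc

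The matches begin 210 and 123 bases before the start site in Ankrd1, 103 bases before it in Cyr61 and 65 bases before it in Amotl2. The table held windows of 300 bases (250 before and 50 after a start site) for 7 of the 10 genes, 10 windows in all. On either strand GGAATG was found in 8 of these windows, belonging to 6 genes (Yap1, Wwtr1, Tead3, Cyr61, Ankrd1 and Amotl2), against 14.7% of all 32851 windows in the table. Both windows of Wwtr1 overlap and hold the same match. The AP-1 letters TGANTCA and the CArG box were found in none of the 10 windows, against 7.81% and 1.63% of all windows. A match describes these letters and is not a measured binding site. Ctgf, Tead1 and Tead4 were not among the windows.

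The first question was how EGCG-treated cells differed from controls of the same depot and day. In WAT cells on day 4, Ctgf, Cyr61 and Amotl2 fell and Ankrd1 rose, while in BAT cells on day 4 all 4 target genes rose, Ctgf by 7.04 times. On day 8, Ctgf, Cyr61 and Ankrd1 rose in both depots, and Amotl2 fell in WAT cells. Yap1 and Wwtr1 levels never differed between EGCG and control by more than 1.37 times. Calls were made in limma where the adjusted p was under 0.05, with 14095 genes tested. Of the 10 genes, 5 were called in WAT cells on day 4 (2 higher, 3 lower), against 53.7% of all genes tested. In WAT cells on day 8 there were 8 (7 higher, 1 lower), against 63.6%. On day 4 in BAT cells all 10 were called and all were higher, against 48.5%, and in BAT cells on day 8 the number was 9 (8 higher, 1 lower), against 72.6%. In replicate 3, after rescaling, every called gene had the sign of its call in all 4 comparisons. Median-ratio scaling moved the median change of all genes by -0.11 in WAT on day 4, by -0.16 in WAT on day 8 and by -0.15 in BAT on day 8. Under it, and under every other alternative that was run, the calls of Ctgf, Cyr61 and Ankrd1 in these 4 comparisons, and of Amotl2 in the 3 where it was called, were kept with their direction.

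**Figure D1:**
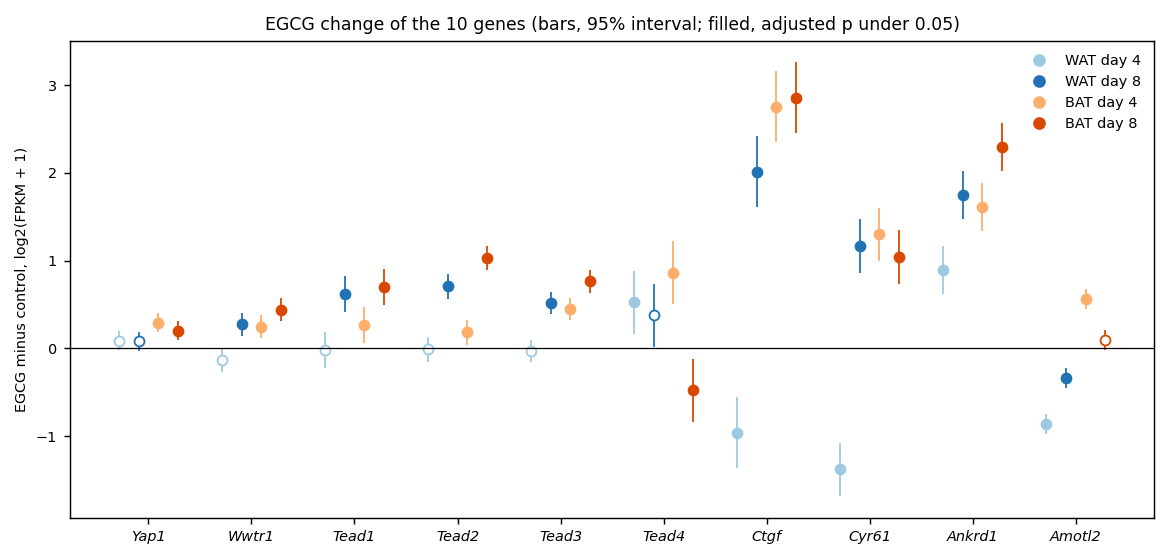
Difference between EGCG and control on the log2(FPKM + 1) scale (vertical axis) for the 10 genes (horizontal axis) in the 4 combinations of depot and day. Points are estimates from replicates 1 and 2, bars are 95% intervals, and filled points had an adjusted p under 0.05. Ctgf and Cyr61 lie below 0 in WAT on day 4 (-0.96 and -1.38) and above 0 in the other 3 comparisons.

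Ctgf encodes a secreted matrix-associated protein and is the target gene used most often as a readout of the pathway. It lies on chromosome 10, 24315248 to 24318489 (plus strand, ENSMUSG00000019997.4). It overlaps Gm15270 by 570 bases, and whether counting used the strand is not stated. In WAT day 4 controls its level was 64.5, 53.8 and 74.3 FPKM in replicates 1, 2 and 3, and with EGCG it was 30.2, 29.4 and 45.4. All 3 EGCG libraries were below all 3 controls (log2 change -0.96 ± 0.18 SE, adjusted p = 0.001). In BAT day 4 controls Ctgf stood at 17.6, 21.4 and 35.5 FPKM, the lowest of the 8 groups, and with EGCG at 148, 127 and 164. The groups did not overlap, and the change was 2.76 ± 0.18 on the log2 scale (adjusted p = 2.84e-07).

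On day 8 Ctgf was high with EGCG in both depots. WAT controls had 88.2, 53.8 and 103 FPKM and WAT EGCG cells 292, 270.2 and 209, the last being 458 after rescaling (log2 change 2.01 ± 0.18, adjusted p = 1.92e-06). BAT controls had 77.3, 91.5 and 148 FPKM, and BAT EGCG cells 601, 627 and 972 (log2 change 2.85 ± 0.18, adjusted p = 4.86e-08). The lowest EGCG library was above the highest control in each depot. From the lowest group mean, 19.5 FPKM in BAT day 4 control, to the highest, 614 FPKM in BAT day 8 EGCG, Ctgf spanned 31.5 times, the widest range of the 10 genes. In the order of the 8 group means, replicates 1 and 2 overlapped between WAT day 4 control and WAT day 8 control and between WAT day 8 control and BAT day 8 control, and not between the other neighbours.

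Cyr61, a secreted relative of Ctgf in the same CCN family, lies on chromosome 3, 145309935 to 145312949 (minus strand, ENSMUSG00000028195.3). It was the most abundant of the 10 genes per length in WAT day 4 controls, with 474, 441 and 431 FPKM, and fell with EGCG to 172, 179 and 176. The EGCG libraries lay close together and far below the controls (log2 change -1.38 ± 0.14, adjusted p = 7.52e-06). In BAT cells on day 4 it was 114, 120.3 and 125 FPKM in controls and 298, 281 and 257 with EGCG (1.30 ± 0.14, adjusted p = 1.21e-05). The same treatment thus went with less Cyr61 in WAT cells and more in BAT cells on day 4.

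On day 8 Cyr61 rose with EGCG in WAT cells, from 201, 131 and 158 FPKM to 377, 355 and 151 (log2 change 1.17 ± 0.14, adjusted p = 1.64e-05). The last value, in the library that stood apart, was within the controls as deposited and 331 FPKM after rescaling. In BAT cells on day 8 it rose from 304, 315 and 319 FPKM to 625, 649 and 614 (1.04 ± 0.14, adjusted p = 2.85e-05). The groups in BAT did not overlap. Across the 8 groups Cyr61 ran from 117 FPKM in BAT day 4 control to 637 in BAT day 8 EGCG, and in replicates 1 and 2 WAT day 8 control and WAT day 4 EGCG were the only neighbours in that order that overlapped.

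Ankrd1 encodes an ankyrin repeat protein of the nucleus and the sarcomere and is a target gene induced by mechanical load. It lies on chromosome 19, 36186455 to 36194334 (minus strand, ENSMUSG00000024803.8). Unlike the other 3 target genes, it rose with EGCG in all 4 comparisons. In WAT day 4 cells it was 5.13, 5.18 and 4.56 FPKM in controls and 10.4, 10.5 and 8.53 with EGCG (log2 change 0.90 ± 0.12, adjusted p = 9.75e-05). In BAT day 4 cells the values were 2.06, 2.14 and 2.02 in controls and 9.73, 7.34 and 8.06 with EGCG (1.61 ± 0.12, adjusted p = 8.62e-07). Every EGCG library on day 4 was above every control of its depot.

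On day 8 Ankrd1 had 4.71, 3.28 and 3.52 FPKM in WAT controls and 15.8, 15.4 and 6.68 with EGCG, the last being 14.6 after rescaling (log2 change 1.75 ± 0.12, adjusted p = 2.54e-07). BAT controls had 5.70, 6.06 and 6.83 FPKM and BAT EGCG cells 32.0, 33.4 and 33.0 (2.29 ± 0.12, adjusted p = 1.12e-08). None of the 8 groups overlapped its neighbours in replicates 1 and 2, from 2.10 FPKM in BAT day 4 control to 32.7 in BAT day 8 EGCG.

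Amotl2 encodes an angiomotin family protein that binds YAP and holds it at cell junctions, and is itself a YAP/TAZ target. It lies on chromosome 9, 102619002 to 102635748 (plus strand, ENSMUSG00000032531.8). In WAT cells it fell with EGCG on both days. On day 4 the controls had 66.4, 68.6 and 60.7 FPKM and the EGCG cells 37.3, 36.3 and 38.4 (log2 change -0.86 ± 0.05, adjusted p = 1.40e-07). On day 8 the controls had 81.2, 78.7 and 77.1 FPKM and the EGCG cells 62.6, 63.6 and 23.0, the last being 50.4 after rescaling (-0.34 ± 0.05, adjusted p = 0.000142). In BAT cells it rose on day 4, from 66.2, 73.5 and 69.2 FPKM to 106, 101 and 96.9 (0.56 ± 0.05, adjusted p = 4.11e-06). On day 8 the BAT values were 109, 104 and 105 FPKM in controls and 111, 117 and 117 with EGCG, a difference of 0.10 (95% interval -0.02 to 0.21, adjusted p = 0.118). Among the 8 means of replicates 1 and 2, WAT day 4 control overlapped BAT day 4 control and BAT day 4 EGCG overlapped BAT day 8 control. The BAT day 8 difference was 0.17 (adjusted p = 0.0126) with quantile normalization and -0.09 (adjusted p = 0.116) with median-ratio scaling.

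**Figure D2:**
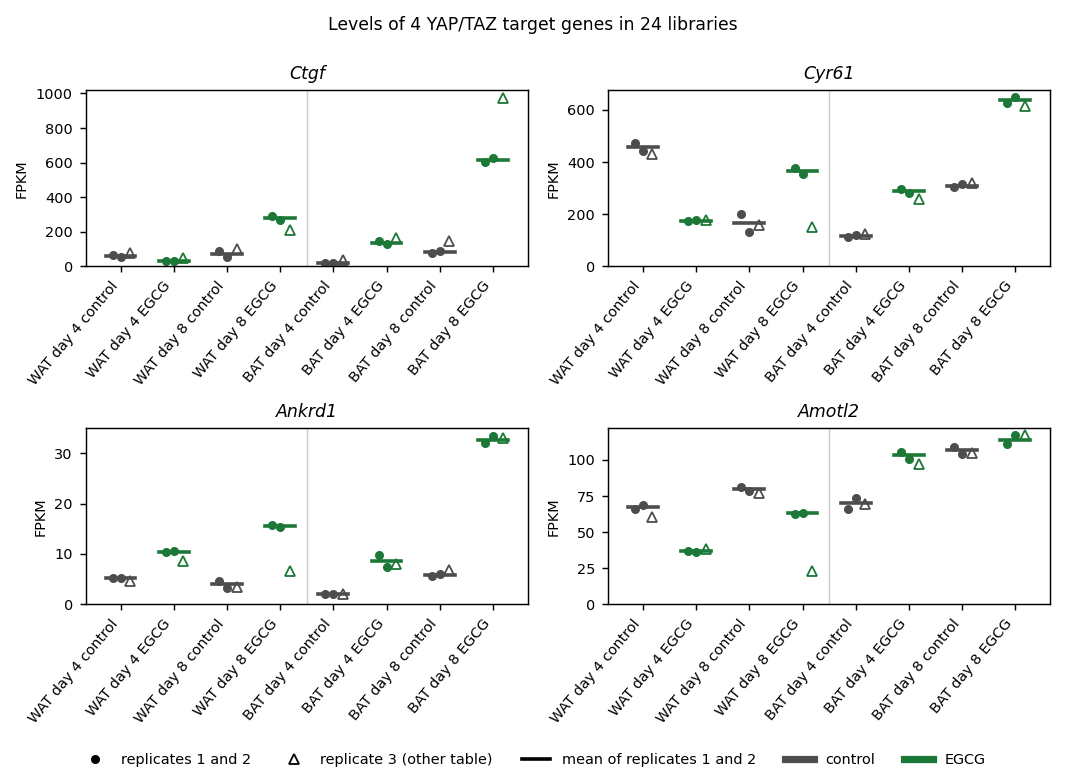
FPKM (vertical axis, from 0) of the 4 target genes in each of the 8 groups (horizontal axis). Filled circles are replicates 1 and 2, open triangles replicate 3 as deposited, bars the mean of replicates 1 and 2, grey is control and green is EGCG. Ctgf, Cyr61 and Ankrd1 are highest in BAT day 8 EGCG, with means of 614, 637 and 32.7 FPKM, and the triangle of WAT day 8 EGCG lies below both circles of its own group in each panel.

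Over the 8 groups the coactivators spanned a narrower range of means than the target genes, of which Amotl2 had the narrowest (3.11 times). Yap1 lies on chromosome 9, 7931999 to 8004596 (minus strand, ENSMUSG00000053110.7), and its 8 group means lay between 26.3 FPKM in BAT day 4 control and 34.9 in BAT day 8 EGCG, a span of 1.33 times. In BAT day 4 cells it was 26.6, 26.0 and 26.4 FPKM in controls and 33.3, 31.7 and 32.1 with EGCG (log2 change 0.29 ± 0.05, adjusted p = 0.000396). In BAT day 8 cells it was 30.6, 29.8 and 29.9 FPKM in controls and 34.6, 35.1 and 37.4 with EGCG (0.20 ± 0.05, adjusted p = 0.00269). The groups did not overlap on either day. The day 8 call was lost with median-ratio scaling (0.02, adjusted p = 0.794), and that scaling lowered the median change of all genes in this comparison by 0.15.

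In WAT cells Yap1 had 29.6, 28.7 and 28.5 FPKM in day 4 controls and 31.7, 30.4 and 29.7 with EGCG, a difference of 0.08 (95% interval -0.02 to 0.19, adjusted p = 0.166). On day 8 the controls had 30.0, 33.0 and 30.5 FPKM and the EGCG cells 34.0, 32.7 and 13.0, the last being 28.6 after rescaling. The difference of 0.08 (interval -0.03 to 0.19) was not called, was 0.15 (adjusted p = 0.024) without WAT day 8 control replicate 2, and was -0.11 (adjusted p = 0.0115) in a fit of all 24 libraries with median-ratio scaling. In the order of the 8 means, replicates 1 and 2 of the 5 groups from BAT day 8 control to WAT day 8 EGCG overlapped their neighbours.

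Wwtr1 lies on chromosome 3, 57259571 to 57379832 (minus strand, ENSMUSG00000027803.8). It was highest in WAT day 4 controls, with 36.9, 36.3 and 32.2 FPKM, and stood at 32.6, 33.8 and 30.6 with EGCG (log2 difference -0.14, 95% interval -0.27 to -0.01, adjusted p = 0.0727). With median-ratio scaling that difference was -0.27 (adjusted p = 0.00226). In the other 3 comparisons Wwtr1 rose with EGCG. In BAT cells it went from 27.8, 26.7 and 25.7 FPKM to 32.7, 32.4 and 30.1 on day 4 (0.25 ± 0.06, adjusted p = 0.00499). On day 8 it went from 25.4, 24.2 and 26.1 FPKM in BAT controls to 34.2, 33.9 and 30.8 (0.44 ± 0.06, adjusted p = 3.24e-05). In WAT day 8 cells it was 31.0, 26.5 and 25.2 FPKM in controls and 34.3, 35.4 and 12.7 with EGCG, the last being 27.8 after rescaling (0.27 ± 0.06, adjusted p = 0.00177), and the call was lost with median-ratio scaling (0.08, adjusted p = 0.29). Its 8 means spanned 1.47 times, and in their order replicates 1 and 2 of BAT day 4 control overlapped WAT day 8 control and BAT day 4 EGCG overlapped WAT day 4 EGCG.

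Among the TEAD genes, Tead1, Tead2 and Tead3 rose with EGCG on day 8 in both depots. Tead1 (chromosome 7, 119822832 to 120050319, plus strand, ENSMUSG00000055320.8) went from 13.7, 11.5 and 9.71 FPKM in BAT day 8 controls to 21.0, 21.1 and 13.6 with EGCG (log2 change 0.70 ± 0.09, adjusted p = 2.69e-05). In WAT day 8 cells it went from 9.49, 8.31 and 5.81 FPKM to 14.1, 14.1 and 3.72, the last being 8.15 after rescaling (0.61 ± 0.09, adjusted p = 0.000118). Replicate 3 was lower than replicates 1 and 2 in all 8 groups for Tead1, and a processed transcript with the same symbol that shares 3846 exonic bases with it was listed at 0 in all 24 libraries.

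Tead2 (chromosome 7, 52471123 to 52489005, plus strand, ENSMUSG00000030796.8) is a TEAD factor best known from the embryo. In BAT day 8 cells it went from 4.06, 4.73 and 4.70 FPKM in controls to 10.1, 9.83 and 10.2 with EGCG (log2 change 1.03 ± 0.06, adjusted p = 3.51e-08). In WAT day 8 cells it went from 5.58, 5.22 and 5.79 FPKM to 9.56, 9.33 and 4.08, the last being 8.93 after rescaling (0.71 ± 0.06, adjusted p = 1.76e-06). Tead3 (chromosome 17, 28468616 to 28487750, minus strand, ENSMUSG00000002249.10) went from 11.7, 11.4 and 10.8 FPKM to 20.4, 20.1 and 19.5 in BAT day 8 cells (0.76 ± 0.06, adjusted p = 2.00e-07). In WAT day 8 cells Tead3 went from 15.7, 13.5 and 13.8 FPKM to 21.5, 20.8 and 7.99, the last being 17.5 after rescaling (0.51 ± 0.06, adjusted p = 1.08e-05).

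On day 4 the same 3 genes were not called in WAT cells, where their differences were -0.02 for Tead1, -0.01 for Tead2 and -0.03 for Tead3. With median-ratio scaling, Tead3 was called there, at -0.16 (adjusted p = 0.0302). In BAT day 4 cells Tead3 rose from 13.1, 13.3 and 12.2 FPKM to 18.5, 18.4 and 16.8 (0.45 ± 0.06, adjusted p = 5.24e-05). Tead1 (0.26, adjusted p = 0.0344) and Tead2 (0.18, adjusted p = 0.0335) rose there too. Both of these last calls were lost with median-ratio scaling (adjusted p = 0.0709 and 0.085) and when any of the 4 BAT day 4 libraries was left out (0.0908 to 0.121 for Tead1 and 0.0869 to 0.128 for Tead2).

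Tead4 (chromosome 6, 128174306 to 128250841, minus strand, ENSMUSG00000030353.9) was the least abundant of the 10 genes, with 77 to 282 reads per library in replicates 1 and 2. In BAT cells its response turned over between the days. On day 4 it rose from 0.638, 0.557 and 0.426 FPKM in controls to 2.09, 1.73 and 1.43 with EGCG (log2 change 0.86 ± 0.16, adjusted p = 0.000919). On day 8 it fell from 1.91, 1.92 and 1.84 FPKM to 0.972, 1.22 and 1.19 (-0.48 ± 0.16, adjusted p = 0.0188). No EGCG library overlapped the controls on either day. The day 8 call was lost without BAT day 8 control replicate 1 (adjusted p = 0.0616) or 2 (0.0644) or EGCG replicate 1 (0.11). In WAT day 4 cells it was 0.545, 0.811 and 0.416 FPKM in controls and 1.64, 1.19 and 1.29 with EGCG (0.52 ± 0.16, adjusted p = 0.0173), a call lost without WAT day 4 control replicate 1 (0.122) or EGCG replicate 1 (0.134). In WAT day 8 cells it was 0.510, 1.13 and 0.745 FPKM in controls and 1.51, 1.15 and 0.359 with EGCG, the last being 0.786 after rescaling (0.38, 95% interval 0.02 to 0.73, adjusted p = 0.0616), and 0.62 (adjusted p = 0.00573) without WAT day 8 control replicate 2.

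In the order of the 8 group means, replicates 1 and 2 of neighbouring groups overlapped in 3 of 7 pairs for Tead1, in 1 of 7 for Tead2, in none for Tead3 and in 6 of 7 for Tead4, so the order of the Tead4 means is mostly within their spread. Tead1 was lowest in WAT day 8 control (8.90 FPKM) and highest in BAT day 8 EGCG (21.1), and Tead3 was lowest in BAT day 8 control (11.5) and highest in WAT day 8 EGCG (21.2).

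**Figure D3:**
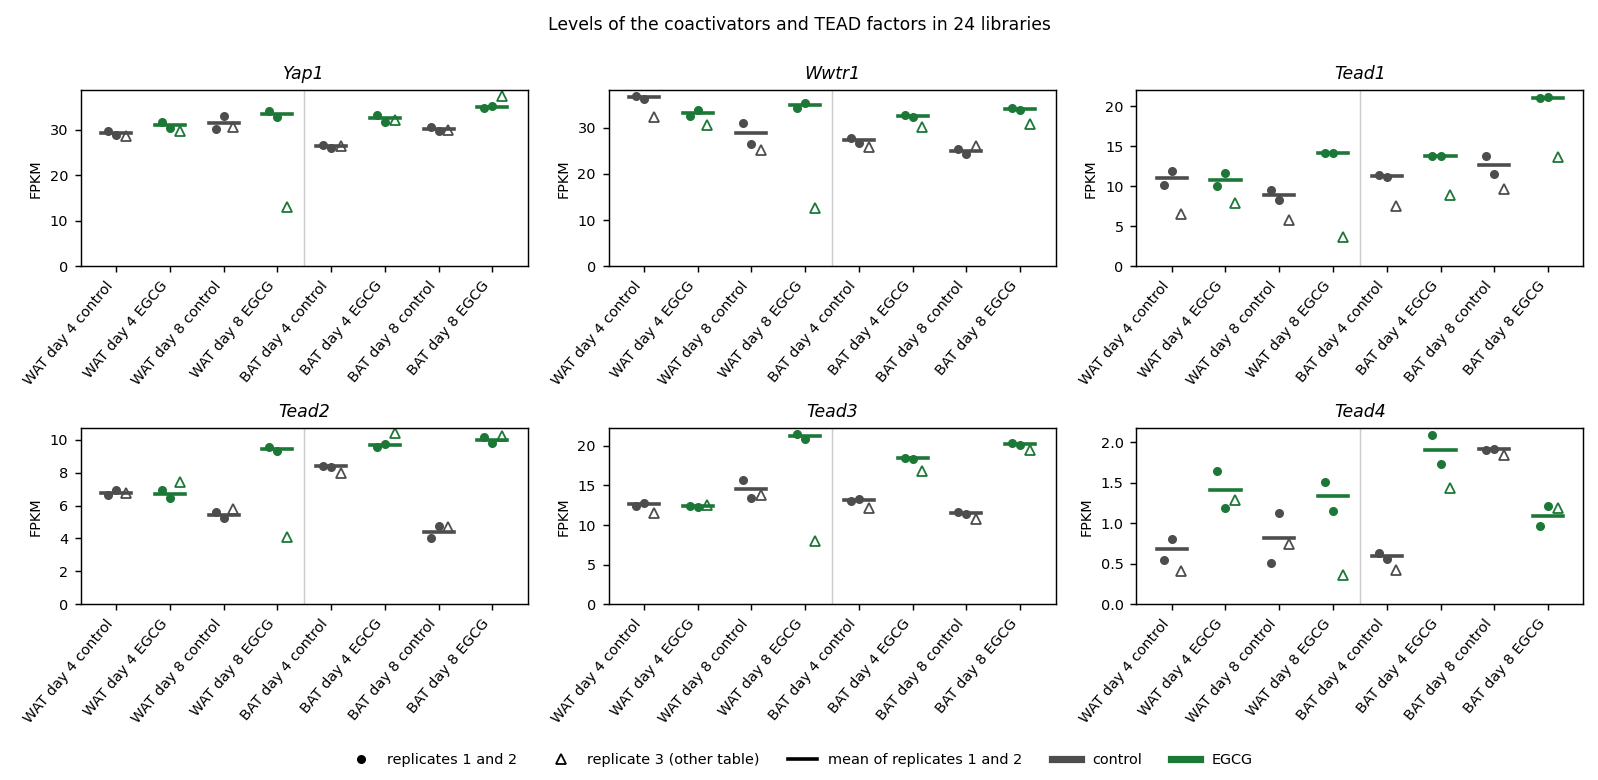
FPKM (vertical axis, from 0) of Yap1, Wwtr1 and the 4 TEAD genes in each of the 8 groups (horizontal axis), drawn with filled circles for replicates 1 and 2, open triangles for replicate 3 as deposited, and bars for the mean of replicates 1 and 2. Yap1 stays between 26.3 and 34.9 FPKM in the group means, while Tead2 falls to 4.40 FPKM in BAT day 8 control and reaches 9.99 in BAT day 8 EGCG.

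Whether EGCG acted alike in the depots was tested as the difference of its effects, BAT minus WAT. On day 4, 7 of the 10 genes were called and all were positive, against 28.1% of all genes tested. The differences were 3.72 ± 0.26 for Ctgf (adjusted p = 3.23e-06), 2.68 ± 0.20 for Cyr61 (adjusted p = 4.00e-06) and 1.42 ± 0.07 for Amotl2 (adjusted p = 5.43e-07). These 3 genes fell in WAT and rose in BAT. Ankrd1 rose in both depots and more in BAT (0.71 ± 0.18, adjusted p = 0.0113). Tead3 (0.48), Wwtr1 (0.38) and Yap1 (0.21) differed as well. Yap1 (adjusted p = 0.0433) lost its call whichever of the 8 day 4 libraries was left out (adjusted p from 0.05 to 0.145).

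On day 8, 6 of the 10 genes were called (5 positive, 1 negative), against 39.2% of all genes tested. Amotl2 (0.43 ± 0.07, adjusted p = 0.000799) and Tead4 (-0.85 ± 0.23, adjusted p = 0.0117) kept their calls in every alternative that was run. Ctgf (0.84 ± 0.26, adjusted p = 0.0242), Ankrd1 (0.55), Tead2 (0.32) and Tead3 (0.25) did not: Ctgf was at 0.49 (adjusted p = 0.0557) without WAT day 8 control replicate 1 and at 0.72 (adjusted p = 0.0858) without BAT day 8 control replicate 1. Ankrd1 and Tead3 lost their calls when any single day 8 library other than WAT control replicate 2 was left out. Tead2 lost its call without BAT day 8 control replicate 1 or BAT day 8 EGCG replicate 1. Cyr61 did not pass the test (-0.13, 95% interval -0.56 to 0.30), and was at -0.44 (adjusted p = 0.00166) without WAT day 8 control replicate 1.

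The change of the EGCG effect from day 4 to day 8 was tested in the same way. In WAT cells 8 of the 10 genes were called and all were positive, against 49.4% of all genes tested, with Ctgf at 2.97 ± 0.26 (adjusted p = 5.14e-06) and Cyr61 at 2.55 ± 0.20 (adjusted p = 2.13e-06). Both had been lower with EGCG on day 4 and were higher on day 8. In BAT cells 6 of the 10 were called (4 positive, 2 negative), against 55.4%. The negative ones were Tead4 (-1.34 ± 0.23, adjusted p = 0.000413) and Amotl2 (-0.46 ± 0.07, adjusted p = 0.000272). Ctgf was not called in BAT (0.10, 95% interval -0.47 to 0.67), so an equal effect on both days was within its interval. Tead1 (0.44) and Tead3 (0.31) lost their calls in BAT with median-ratio scaling (adjusted p = 0.085 and 0.091), which moved the median of all genes by -0.12, and Tead1 lost it without BAT day 8 control replicate 2 (0.0643).

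The change of the 10 genes during differentiation without EGCG was read in each depot, and its difference between depots was not tested. From day 4 to day 8 in BAT controls, 8 of the 10 genes were called (6 higher, 2 lower), against 69.2% of all genes tested, and Ctgf (2.06 ± 0.18), Cyr61 (1.40 ± 0.14), Ankrd1 (1.15 ± 0.12) and Amotl2 (0.61 ± 0.05) all rose (adjusted p from 8.41e-07 to 5.83e-06). Tead4 rose as well (0.87 ± 0.16, adjusted p = 0.000494), and Tead2 fell by 0.80 on the log2 scale (adjusted p = 4.23e-07). The other lower gene, Tead3 (-0.18, adjusted p = 0.015), lost its call with median-ratio scaling (-0.04, adjusted p = 0.546), which moved the median change of all genes by 0.12, and without BAT day 4 control replicate 2 (0.0698) or day 8 control replicate 2 (0.0722). In WAT controls 7 of the 10 were called (2 higher, 5 lower), against 61% of all genes tested. Cyr61 fell there (-1.49 ± 0.14, adjusted p = 2.54e-06), as did Wwtr1 (-0.34 ± 0.06, adjusted p = 0.000389) and Tead2 (-0.28, adjusted p = 0.00262), and Amotl2 rose (0.24, adjusted p = 0.00182). Ctgf was at 0.22 (95% interval -0.18 to 0.63) and at 0.57 (adjusted p = 0.00477) without WAT day 8 control replicate 2, whose Ctgf and Cyr61 values were the lowest of their group. The WAT control call of Ankrd1 (-0.32, adjusted p = 0.0442) was lost without that library (adjusted p = 0.434) and without WAT day 4 control replicate 1 or 2 (0.115 and 0.125), that of Tead1 (-0.27, adjusted p = 0.0234) without WAT day 8 control replicate 2 (0.164) or day 4 control replicate 2 (0.204), and that of Tead3 (0.19, adjusted p = 0.0136) without WAT day 8 control replicate 1 (0.131) or day 4 control replicate 1 (0.0729).

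With EGCG present, Ctgf, Cyr61 and Ankrd1 rose from day 4 to day 8 in both depots. In WAT EGCG cells 7 of the 10 genes were called and all were higher, against 59.5% of all genes tested, with Ctgf at 3.20 ± 0.18 (adjusted p = 6.41e-08), Cyr61 at 1.06 ± 0.14, Amotl2 at 0.76 ± 0.05 and Ankrd1 at 0.54 ± 0.12. The Tead1 call among them (0.36, adjusted p = 0.00581) was lost without WAT day 4 EGCG replicate 1 (0.0633). In BAT EGCG cells 6 of the 10 were called (5 higher, 1 lower), against 58% of all genes tested, with Ctgf at 2.16 ± 0.18 (adjusted p = 1.39e-06), Ankrd1 at 1.83 ± 0.12 and Cyr61 at 1.14 ± 0.14. Amotl2 was at 0.14 ± 0.05 (adjusted p = 0.0332), a call lost with quantile normalization (0.142), with no filter (0.0534) and without BAT day 4 EGCG replicate 2 (0.191) or day 8 EGCG replicate 2 (0.203). Tead4 was the gene that fell there (-0.47, adjusted p = 0.0253), a call lost without BAT day 4 EGCG replicate 1 (0.14) or day 8 EGCG replicate 1 (0.138).

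Between depots, BAT day 4 controls had less Ctgf (log2 difference -1.55 ± 0.18, adjusted p = 3.58e-05), Cyr61 (-1.96 ± 0.14, adjusted p = 8.75e-07), Ankrd1 (-0.99 ± 0.12, adjusted p = 5.40e-05) and Wwtr1 (-0.41 ± 0.06, adjusted p = 0.000153) than WAT day 4 controls. In that comparison 6 of the 10 genes were called (1 higher, 5 lower in BAT), against 55.8% of all genes tested. Among the lower ones, Yap1 lost its call without WAT day 4 control replicate 1 or BAT day 4 control replicate 1 or 2. The gene that was higher there, Tead2 (0.27, adjusted p = 0.00371), lost its call with median-ratio scaling (0.13, adjusted p = 0.124), which moved the median of all genes by -0.13. With EGCG on day 4 the order was the other way for Ctgf (2.16 ± 0.18, adjusted p = 2.82e-06) and Cyr61 (0.72 ± 0.14, adjusted p = 0.00124). In that comparison 6 of the 10 were called, all higher in BAT, against 48.7%. Tead1 among them lost its call with quantile normalization (0.21, adjusted p = 0.101). On day 8, 8 of the 10 were called between controls (5 higher, 3 lower), against 53.6%. Of these, Tead1, Tead4, Cyr61 and Amotl2 kept their calls in every alternative that was run, and Wwtr1, Tead2, Tead3 and Ankrd1 did not. Between EGCG cells on day 8, 5 of the 10 were called (all higher in BAT), against 38.4%. Those 5 were Ctgf (1.12), Cyr61 (0.80), Ankrd1 (1.02), Amotl2 (0.85) and Tead1 (0.54), and each kept its call in every alternative that was run.

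Other genes of the pathway were read from a list of 27 Hippo kinases, adaptors and regulators, chosen with earlier results of these data known. All 27 were tested. With EGCG, 17 were called in WAT day 4 cells (12 higher, 5 lower), 20 in WAT day 8 cells (19 higher, 1 lower), 17 in BAT day 4 cells (14 higher, 3 lower) and 23 in BAT day 8 cells (21 higher, 2 lower). These are 63, 74.1, 63 and 85.2% of the list, against 53.7, 63.6, 48.5 and 72.6% of all genes tested. Over all genes the calls were 4853 higher and 2714 lower in WAT day 4 cells, 6302 and 2660 in WAT day 8 cells, 3938 and 2900 in BAT day 4 cells, and 6549 and 3682 in BAT day 8 cells. The median log2 change of the list was 0.17, 0.41, 0.15 and 0.61 in that order, beside 0.09, 0.17, 0.03 and 0.17 for all genes tested. Fat1, an atypical cadherin upstream of the kinases, rose from 28.6 to 126 FPKM in BAT day 8 cells (2.10 ± 0.11) and from 26.8 to 65.9 in WAT day 8 cells (1.28 ± 0.11). Vgll3, a cofactor that binds TEAD factors in place of YAP and TAZ and is known to hinder adipocyte formation, rose from 25.1 to 96.8 FPKM in BAT day 8 cells (1.91 ± 0.06) and from 23.5 to 72.6 FPKM in BAT day 4 cells (1.59 ± 0.06).

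The cadherin Fat4 moved the other way in 3 of these comparisons. It fell from 7.29 to 1.80 FPKM with EGCG in WAT day 4 cells (-1.57 ± 0.12), and it fell by 0.49 in WAT day 8 cells and by 0.42 in BAT day 4 cells on the log2 scale. Its partner Dchs1 fell by 0.98 in WAT day 4 cells. The kinase scaffold Sav1 rose from 49.6 to 79.5 FPKM in WAT day 4 cells and fell from 60.3 to 38.4 FPKM in BAT day 8 cells, and the LATS inhibitor Limd1 fell from 25.1 to 16.4 FPKM in BAT day 8 cells. Rassf1 rose by 0.71 in WAT day 4 cells, Nf2 rose by 0.23 in WAT day 8 cells, and Map4k4 fell by 0.15 in BAT day 4 cells. In controls from day 4 to day 8, Map4k4 and Fat4 fell in both depots (Map4k4 by 0.67 in WAT and by 1.16 in BAT, Fat4 by 1.29 and by 1.01), and Rassf1 rose in both (0.92 and 0.97). Lats2 rose in WAT controls (0.54) and Amotl1 in BAT controls (1.02).

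A further 24 target genes named for the pathway in general knowledge, 3 of them (Ajuba, Lats2 and Ptpn14) also on the Hippo list, were called higher more often than lower with EGCG, as were all genes tested. In WAT day 4 cells 18 were called (13 higher, 5 lower), in WAT day 8 cells 19 (17 higher, 2 lower), in BAT day 4 cells 20 (17 higher, 3 lower) and in BAT day 8 cells 22 (20 higher, 2 lower). These are 75, 79.2, 83.3 and 91.7% of the list, against the same 53.7, 63.6, 48.5 and 72.6% of all genes. The median log2 change was 0.32, 0.62, 0.55 and 1.12 in that order, beside 0.09, 0.17, 0.03 and 0.17 for all genes. Tissue factor F3 (301 to 82.9 FPKM) and the secreted protein gene Ccdc80 (80.4 to 21.6 FPKM) fell with EGCG in WAT day 4 cells, as Ctgf and Cyr61 did.

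Of the remaining named targets, Tgfb1 rose from 12.8 to 50.9 FPKM and Myof, a membrane repair gene, from 12.1 to 45.8 FPKM in BAT day 8 cells. Edn1, the endothelin precursor gene, rose from 3.00 to 13.2 FPKM in BAT day 4 cells, and the stress gene Gadd45a from 13.6 to 47.5 FPKM in WAT day 8 cells. Some went down steeply. Nt5e, the gene of the ectonucleotidase CD73, fell from 44.7 to 0.240 FPKM in BAT day 8 cells (-5.20 ± 0.21), from 12.8 to 1.10 FPKM in WAT day 8 cells and from 1.74 to 0.702 FPKM in BAT day 4 cells. Igfbp3, which binds insulin-like growth factors, rose in WAT day 4 cells (189 to 481 FPKM) and fell on day 8 in WAT cells (467 to 152 FPKM) and in BAT cells (350.0 to 47.8 FPKM), while Tgfb2 fell in BAT day 4 cells (8.93 to 3.32 FPKM).

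In controls from day 4 to day 8, Birc5, a cell division gene, fell from 4.75 to 1.03 FPKM in WAT and from 9.19 to 1.03 FPKM in BAT. Ccdc80 (80.4 to 280.0 FPKM) rose in WAT controls and Gadd45a fell (37.5 to 13.6 FPKM). In BAT controls Nt5e (1.74 to 44.7 FPKM) and Thbs1 (88.1 to 372 FPKM) rose and Tgfb2 fell (8.93 to 1.89 FPKM). In these control day comparisons 17 of the 24 targets were called in each depot, 11 higher and 6 lower, and of the Hippo list 16 in WAT (6 higher, 10 lower) and 15 in BAT (6 higher, 9 lower). The shares were 70.8% of the targets in both depots and 59.3% and 55.6% of the Hippo list in WAT and BAT, against 61% and 69.2% of all genes tested.

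**Figure D4:**
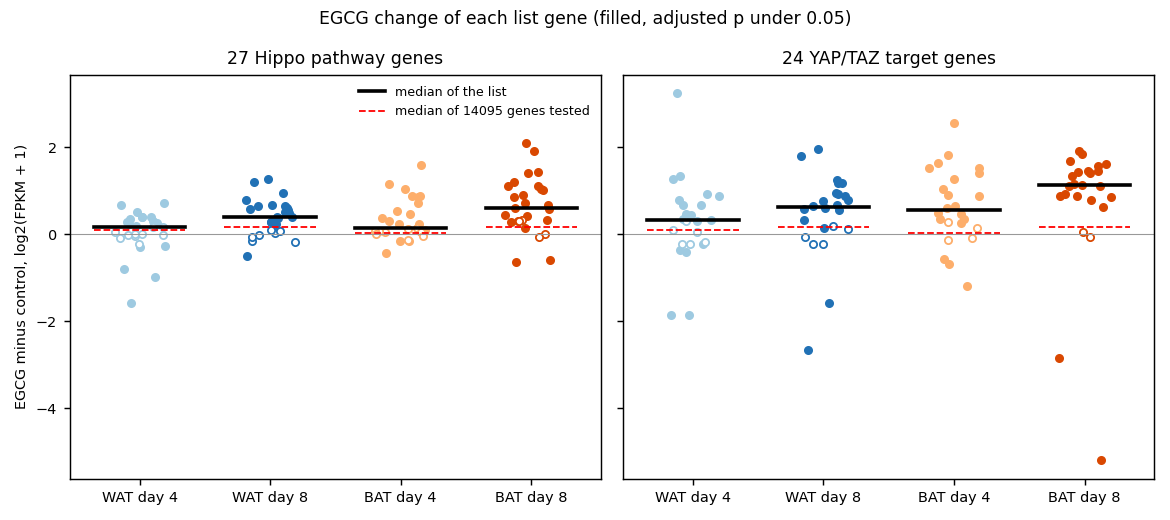
Difference between EGCG and control on the log2(FPKM + 1) scale (vertical axis) for each of 27 Hippo pathway genes (left) and 24 further target genes (right) in the 4 combinations of depot and day (horizontal axis). Filled points had an adjusted p under 0.05, black lines are list medians and dashed red lines the median of the 14095 genes tested. The target list median is 1.12 in BAT day 8, where Nt5e lies lowest at -5.20.

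Markers of several cell types moved with EGCG as well. In bulk RNA, fewer cells of a type and less RNA per cell cannot be told apart. All 8 adipocyte markers fell in each of the 4 EGCG comparisons, for example from a sum of 10029 to 10119 FPKM in BAT day 8 controls to 476 to 486 FPKM with EGCG. The 5 smooth muscle and myofibroblast genes (Acta2, Tagln, Cnn1, Myh11 and Myl9) were all called lower in WAT day 4 cells, where Ctgf fell, with sums of 164 to 191 FPKM in controls and 79.0 to 80.9 FPKM with EGCG. All 5 were called higher in BAT day 4 cells, where Ctgf rose, with sums of 103 to 130 FPKM and 721 to 887 FPKM. In WAT day 8 cells, 2 were called higher and 2 lower, and the sum rose from 358 to 499 FPKM to 689 to 699 FPKM. In BAT day 8 cells 4 were called higher and 1 lower, and the sum went from 460 to 529 FPKM to 1412 to 1583 FPKM. Most of each sum was Acta2 and Tagln, whose means rose with EGCG on day 8 in both depots. In WAT day 8 cells the means of Cnn1 (4.42 to 1.98 FPKM) and Myh11 (7.35 to 4.22 FPKM) fell, and that of Myl9 was 51.8 and 50.9 FPKM. In BAT day 8 cells the mean of Myh11 fell from 9.67 to 2.78 FPKM. None of the 5 was at 0 in any group. The fibroblast sum was lower with EGCG in all 4 comparisons (1431 to 1607 FPKM against 2571 to 2622 FPKM in WAT on day 4, and 1120.0 to 1124 FPKM against 1226 to 1243 FPKM in BAT on day 4). Most of that sum was Col1a1 (2267 FPKM in WAT day 4 control), and the list was mixed: 2 of its 6 genes were called higher and 2 lower in BAT on day 4, and in BAT day 8 cells the mean of Pdgfrb was 219 FPKM under EGCG against 62.0 without it. The endothelial sum was higher in all 4 (26.1 to 33.7 FPKM with EGCG against 9.43 to 20.1 FPKM in controls). Of its genes, Pecam1 alone went the other way in WAT day 8 cells, with a mean of 7.54 FPKM in controls and 6.62 with EGCG. Of the macrophage genes 4 of 4 tested were called lower on day 8 in both depots (medians -1.12 in WAT and -0.99 in BAT), and on day 4 those called were higher (3 of 4 in WAT and 2 of 4 in BAT). In WAT day 4 cells the 4 epithelial and 3 skeletal muscle genes tested were all called higher. Of 6 brown adipocyte genes, 3 were called lower in WAT cells on each day, 4 in BAT day 4 cells and 5 in BAT day 8 cells, where 1 was higher. The part of these changes in the results for the 10 genes was not tested.

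**Figure D5:**
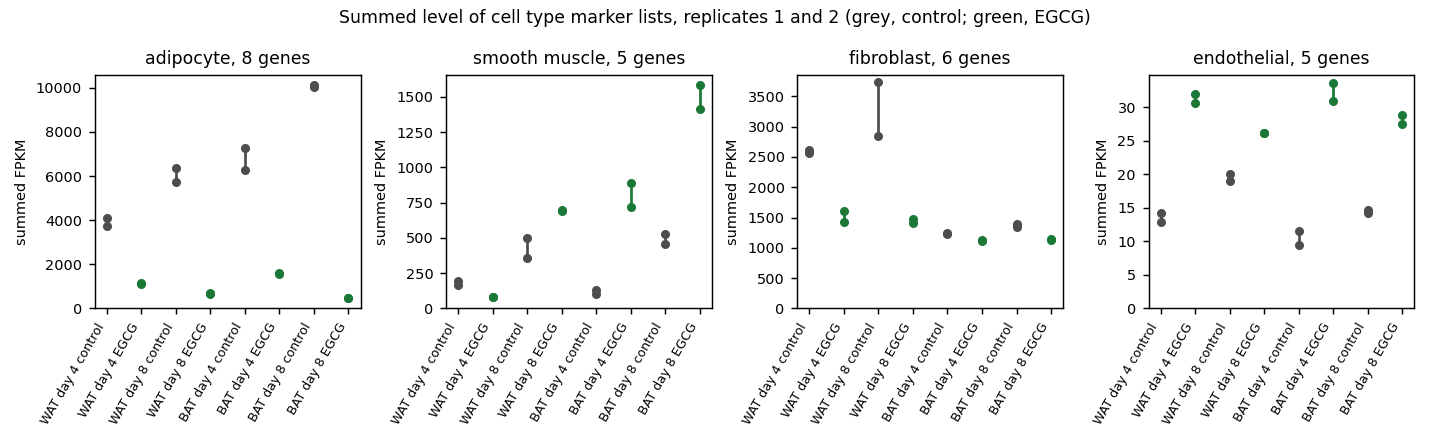
Summed FPKM (vertical axis, from 0) of 4 cell type marker lists in replicates 1 and 2 of each of the 8 groups (horizontal axis), with a line joining the replicates, control in grey and EGCG in green. With EGCG the adipocyte sum is lower and the endothelial sum higher in all 4 comparisons, and the smooth muscle sum is lower with EGCG in WAT day 4 and higher in the other 3 comparisons.

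The genes whose level followed a pathway gene most closely over the 8 group means (Pearson's r of log2 values, among 8695 genes with a mean of at least 5 FPKM, as a description) were named for 6 of the 10. For Ctgf they were Tpm1 (r = 0.984), Myo1d (0.981) and Spnb2 (0.973), genes of a tropomyosin, a myosin and a spectrin of the cell skeleton, and Tpm1 itself ran from 44.2 to 281 FPKM. For Ankrd1 they were Mllt4 (0.982), Wasl (0.979), which drives actin branching, and Rusc2 (0.974). For Cyr61 they were Cited2 (0.946), Mapkapk2 (0.900) and U4 (0.894), the last a small nuclear RNA with near copies, whose value is uncertain. For Amotl2 they were St3gal4 (0.972), Actg2 (0.898), the smooth muscle gamma actin, and Sdpr (0.888). For Yap1 they were Axl (0.973), itself on the target list, Sash1 (0.957) and Crlf2 (0.949), and for Wwtr1 Pdlim7 (0.972), Sox4 (0.968) and Kdelr3 (0.966). The 8 means share controls, depots and sequencing tables, and the scale of likeness is not that of size: Yap1 spanned 1.33 times over the groups while Axl ran from 39.0 to 239 FPKM.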

How the data were processed

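Per the labels, total RNA was extracted with Trizol, libraries were made with Illumina protocols, and the authors' processing notes name FastQC 0.11.9, HISAT2 2.2.0, HTSeq 0.11 and build mm9. The authors deposited FPKM values in 2 tables of 37310 genes, with replicates 1 and 2 of the 8 groups in the first (16 libraries) and replicate 3 in the second (8 libraries). At a tolerance of 0.01, at least 99.95% of values were whole multiples of 1 read, which gave the depth. Within groups, replicates 1 and 2 were farther apart than sampling noise gives. The median squared difference was 4.18 sampling units in WAT day 8 control and 1.63 to 2.50 in the other groups. Tests shared 1 spread per gene over all groups, so intervals that involve WAT day 8 control may be too narrow. The paper given for style reuses the WAT control values alone, and its methods were not used.

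The 10 genes and all lists were chosen with earlier results of these data known. Symbols, identifiers and coordinates are those of the GENCODE vM1 annotation (NCBIM37). A gene was tested when it reached 1 FPKM in at least 2 of the 16 libraries (14095 genes). Values of log2(FPKM + 1) were modelled in limma 3.58.1 with a mean for each group (R 4.3.3, eBayes with trend, 8 residual and 11.4 total degrees of freedom), and two-sided p-values were adjusted by Benjamini-Hochberg within each of 16 comparisons. The pseudocount of 1 understates changes of low genes between groups, and a difference of such changes can come out larger or smaller. The procedure was run on simulated reads with the same spread set for every gene and group. That run cannot show what the larger spread of WAT day 8 control does to the calls. Replicate 3 was used for direction after median-ratio scaling within its table. The named genes are the 10 genes, the 2 highest and the 2 lowest called changes of the Hippo and target lists in the 4 EGCG and 2 control day comparisons, and the 3 genes most like each of 6 pathway genes, apart from 1 target gene that is not reported here. Alternatives were another pseudocount (0.1), no filter or a filter of 5 FPKM, median-ratio scaling, quantile normalization, a replicate block, fits of the compared groups alone or of all libraries, and each library left out. Depth limits precision, and intervals cover the spread between libraries.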

Additional observations from a re-analysis of the deposited data

Results flagged for a closer look

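The effect of EGCG differed between depots or between days, by a limma test of the difference itself, for the genes and values listed here on the log2(FPKM + 1) scale. On day 4 the effect in BAT minus that in WAT was 3.72 for Ctgf, 2.68 for Cyr61, 1.42 for Amotl2, 0.71 for Ankrd1, 0.48 for Tead3, 0.38 for Wwtr1 and 0.21 for Yap1. On day 8 it was 0.84 for Ctgf, 0.55 for Ankrd1, 0.43 for Amotl2, 0.32 for Tead2, 0.25 for Tead3 and -0.85 for Tead4. The call of Yap1 on day 4 was lost in 10 of 17 alternatives. Those of Ankrd1, Tead3, Ctgf and Tead2 on day 8 were lost in 9, 8, 7 and 3 of 17.

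The effect on day 8 minus that on day 4 was, in WAT cells, 2.97 for Ctgf, 2.55 for Cyr61, 0.85 for Ankrd1, 0.72 for Tead2, 0.63 for Tead1, 0.54 for Tead3, 0.52 for Amotl2 and 0.41 for Wwtr1. In BAT cells it was 0.85 for Tead2, 0.68 for Ankrd1, 0.44 for Tead1, 0.31 for Tead3, -0.46 for Amotl2 and -1.34 for Tead4. The limma call of Ankrd1 in BAT was lost with a pseudocount of 0.1 (0.50, adjusted p = 0.0617). Those of Tead1 and Tead3 in BAT were lost in 5 and 2 of 17 alternatives. That of Wwtr1 in WAT was lost with quantile normalization (0.22, adjusted p = 0.0575). The smooth muscle marker sum, mostly Acta2 and Tagln, moved in the direction of Ctgf and Cyr61 in all 4 EGCG comparisons. Ankrd1 in WAT day 4 cells and Amotl2 in WAT day 8 cells moved against it. The list itself was mixed on day 8, when Cnn1 and Myh11 in WAT cells and Myh11 in BAT cells had lower means with EGCG. In the BAT day difference all 5 smooth muscle genes were called negative, while Ctgf and Cyr61 were not called. The part of these markers in the differences was not tested.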

How the results depend on the processing

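Of 112 calls over the 10 genes and 16 comparisons, 83 were kept in every alternative, 50 of 56 for the 4 target genes and 33 of 56 for the coactivators and TEAD genes. How many calls were kept over all genes was not counted. In fits of only the groups compared, which hold fewer libraries, Tead1, Tead3 and Ankrd1 lost their calls from day 4 to day 8 in WAT controls. Wwtr1, Tead2, Tead3 and Ankrd1 lost theirs between depots in day 8 controls. For the depot difference of the EGCG effect on day 8, Tead2, Tead3 and Ctgf lost theirs. The cause of these losses was not tested. Yap1 with EGCG in WAT day 8 cells (0.08, not called) was reversed in the fits of all libraries with median-ratio scaling and table as a block (-0.11) and of those without WAT day 8 EGCG replicate 3 (-0.12). The cause was not tested.

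The replicate numbers did not pair the samples (correlations of same-numbered deviations from -0.07 to 0.081). With the replicate block the count of genes called for the depot difference on day 4 was 6 in place of 7, because Yap1 was at 0.21 with adjusted p = 0.0529, and the block changed no other call of the 10 genes. The lowest or highest of the 8 group means changed with median-ratio scaling for Yap1, Wwtr1, Tead3 and Amotl2. With Spearman's rho in place of Pearson's r, none of the 3 most alike genes was shared for Yap1 and Wwtr1, 1 for Ctgf and Amotl2, 2 for Ankrd1 and 3 for Cyr61. Genes of few reads, such as Tead4, limit what depth can show.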
